A study of Cavia porcellus with 10 samples.

Results

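The 41 genes described here are the named components of the smooth muscle contractile apparatus, and their expression was followed in the cervix of Hartley guinea pigs (Cavia porcellus) across 3 reproductive stages. The members were chosen by gene name, from the filaments, their regulators, and the calcium handling and potassium channel genes of smooth muscle. Of the 41 genes, 40 had a row among the 25028 genes of the deposited table, and all 40 passed the filter on low values that left 12645 genes for testing. The remaining gene, CACNA1C, was not analysed here. The animals were 3 NP females, which were not pregnant and in estrus and were killed on the day after the vaginal occlusion membrane had disappeared, 3 MT females at mid-pregnancy (43.6 ± 0.5 days of gestation) and 4 LT females in late pregnancy that were not in labor (65.2 ± 1.2 days). The tissue was the vaginal portion of the cervix, dissected there to limit carry-over of myometrium, and each animal gave 1 strand-specific RNA-seq library of poly(A) RNA.

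Smooth muscle cells contract when calcium entering through membrane channels or released from the sarcoplasmic reticulum activates myosin light chain kinase, which phosphorylates the regulatory light chain of myosin and lets it pull on actin filaments. Myosin phosphatase reverses this step, and small inhibitor proteins hold the phosphatase back, so that force can be kept at low calcium. The filaments are anchored at dense bodies and at plaques in the cell membrane, and potassium channels opened by calcium limit the excitation of the cell. Serum response factor (SRF) and its muscle coactivator myocardin (MYOCD) switch on most of these genes. The cervix is mainly connective tissue with an epithelium and a smaller amount of smooth muscle, and it softens and opens toward birth.

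Levels are given as TPM, the number of transcripts of a gene per 1000000 transcripts, a unit that corrects for gene length and has the same sum in each library, so that levels of different genes can be compared within an animal. The reads counted on genes numbered between 18730665 and 27881572 per animal. The member with the fewest reads in any library was PLN, with 72, and the largest count of any member was 334494. The mean over the 10 animals ran from 13.3 TPM for MYOCD to 6648 TPM for ACTG2. A mean of at least 1000 TPM was reached by 10 members, namely the actins ACTG2 and ACTA2, TAGLN, the myosin light chains MYL6 and MYL9, the tropomyosins TPM2 and TPM1, DES, CSRP1 and MYH11, and 9 members had a mean under 100 TPM.

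The 40 members together made up 5.13%, 2.20% and 1.86% of all TPM in NP replicates 1, 2 and 3, and 2.45%, 3.51% and 2.90% in MT replicates 1, 2 and 3. In LT replicates 1 to 4 their shares were 3.38%, 3.40%, 5.87% and 6.13%. The stage means were 3.06% ± 1.799 in NP, 2.95% ± 0.533 in MT and 4.69% ± 1.51 in LT (SD, n = 3, 3 and 4). The LT animals with the lowest shares lay below MT replicate 2, so LT overlapped with both other stages. Since these are bulk samples, more smooth muscle cells and more RNA of these genes per cell cannot be told apart, nor can fewer cells and less RNA.

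**Figure D1:**
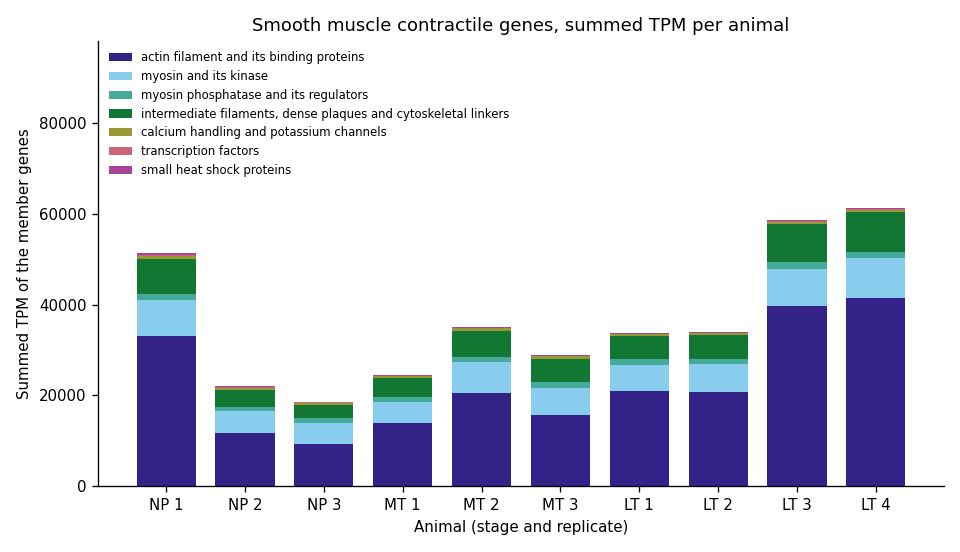
Bars show the summed TPM of the member genes in each of the 10 animals (x axis, stage and replicate), divided by the role of the genes, with the y axis starting at 0. NP replicate 1 (51308 TPM) and LT replicates 3 and 4 (58661 and 61327 TPM) stand above the other 7 animals, which lie between 18596 and 35131 TPM, and genes of the actin filament make up the largest part of each bar.

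Animals of the same stage differed widely in these genes, and this bears on every comparison that follows. NP replicate 1 was the highest of the 3 NP animals for 36 of the 40 members, whereas it was the highest for 21.9% of all tested genes. Over the members, its level divided by the mean of NP replicates 2 and 3 had a median of 1.89, and ran from 0.784 for KCNMA1 to 5.46 for ACTG2. MT replicate 1 was the lowest MT animal for 34 of the 40 members, against 35.6% of all tested genes. Both LT replicate 3 and LT replicate 4 lay above the other LT animals for 33 of the 40 members, against 17.5% of all tested genes. The coefficient of variation between animals of a stage had a median over the members of 39.9% in NP, 17.7% in MT and 24.5% in LT, where the medians of all tested genes were 15.9%, 11.2% and 10.9%.

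The same animals differed in other tissue components. The summed TPM of 9 epithelial markers was 4197 in NP replicate 1 and 1905 and 1854 in the other NP animals, that of 9 fibroblast markers was 10762 against 6774 and 6259, and that of 11 leukocyte markers was 622 against 1354 and 1175. In LT replicates 1 to 4 the epithelial sums were 2993, 4012, 4082 and 4457, the fibroblast sums were 9422, 6936, 7275 and 6357, and the leukocyte sums were 677.5, 543, 724 and 402. The summed TPM of 8 markers of pericytes and mural cells, which are related to smooth muscle, was 309, 344.5, 602 and 530 in these animals. Within LT, replicates 3 and 4 were thus the highest, as they were for most members. In NP replicates 1 to 3 this sum was 674.5, 615 and 559, and in MT replicates 1 to 3 it was 358, 503 and 404. NP replicates 2 and 3, which were low in the members, thus lay above LT replicate 4 in these markers. What part of the differences in contractile genes goes with these components was not tested.

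The stages were compared with limma, fitted once to the log2(TPM + 1) values of the 10 animals, with P-values adjusted over all 12645 tested genes, and a gene is called higher or lower at an adjusted P under 0.05. Fold changes are on this log2 scale, later stage minus earlier stage, which slightly understates changes of genes with low TPM. The median of all tested genes was itself negative, at -0.14 from NP to MT, -0.16 from MT to LT and -0.28 from NP to LT. After each library was rescaled by its median ratio to the gene-wise means, these medians were -0.02, 0.00 and 0.00, and the calls after this rescaling are given beside those on TPM as deposited. Where no setting is named, a call, or its absence, refers to TPM as deposited in all 10 animals.

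From NP to MT, 1 member was called higher (PDLIM3), where 6.27% of all tested genes were, and 0 were called lower, where 12.2% were. The median log2 fold change of the members was 0.07, and 0.19 after rescaling. After rescaling, 3 members were called higher (PDLIM3, ITPR1 and KCNMA1) against 10.4% of all tested genes, and 0 lower against 7.74%. Without any overlap between animals, 2 members were higher in MT (PDLIM3 and ITPR1), against 11.4% of all tested genes, and 2 were lower (PPP1R12A and MYOCD), against 23.5%.

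From MT to LT, 1 member rose (SMTN) against 6.73% of all tested genes, and 3 fell (among them ITPR1 and KCNMA1) against 22.7%. The members' median was 0.15 and that of all tested genes -0.16, and 28 of the 40 member estimates were positive. The members' median after rescaling was 0.32, and that of all tested genes 0.00. After rescaling, 2 members were called higher (SMTN and PLN) against 14.0% of all genes, and 2 lower (ITPR1 and KCNMA1) against 15.3%. All LT animals lay above all MT animals for 7 members (ACTG2, CALD1, TPM1, SMTN, PPP1R14A, DES and VCL), where this held for 10.8% of all tested genes, and below them for 3 members (among them ITPR1 and KCNMA1), against 35.5%.

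From NP to LT, 3 members were called higher (TAGLN, PPP1R14A and PDLIM3) against 11.2% of all tested genes, and 5 lower (among them CNN2, PPP1R12B, ITPR1 and KCNMA1) against 41.9%. The members' median was 0.21, and 0.50 after rescaling. After rescaling, 8 members were called higher (among them TAGLN, CALD1, SMTN, MYL9, PPP1R14A, CSRP1 and PDLIM3) against 24.7% of all tested genes, and 0 lower against 25.0%. So the lower calls of this comparison rest on TPM as deposited. Without overlap of animals, 3 members were higher in LT (among them PPP1R14A and PDLIM3), against 11.8%, and 4 were lower (among them PPP1R12B, ITPR1 and KCNMA1), against 40.6%.

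Leaving out NP replicate 1 mainly added calls, and of the calls on TPM as deposited in all animals only that of ITPR1 from NP to LT was lost. Without it, 4 members were called higher from NP to MT (PPP1R14A, VCL, FLNC and PDLIM3) against 7.22% of all tested genes, and 0 lower against 25.8%. From MT to LT, where this animal enters only through the shared estimate of the spread, 10 members were then called higher against 9.78% and 3 lower against 32.3%. From NP to LT, 20 members were called higher against 11.3% and 4 lower against 49.8%. The members' median from NP to LT was 0.47 without this animal, and that of all tested genes -0.35.

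The 4 calls that held under all 19 alternative settings were those of PPP1R14A and PDLIM3 from NP to LT, and those of ITPR1 and KCNMA1 from MT to LT. Of the 40 members, 31 were not called in any comparison, whereas 53.1% of all tested genes were called from NP to LT alone. For 23 members the highest stage mean was in LT, for 9 in NP and for 8 in MT, whereas 58.1% of all tested genes had their highest mean in NP and 20.5% in LT.

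**Figure D2:**
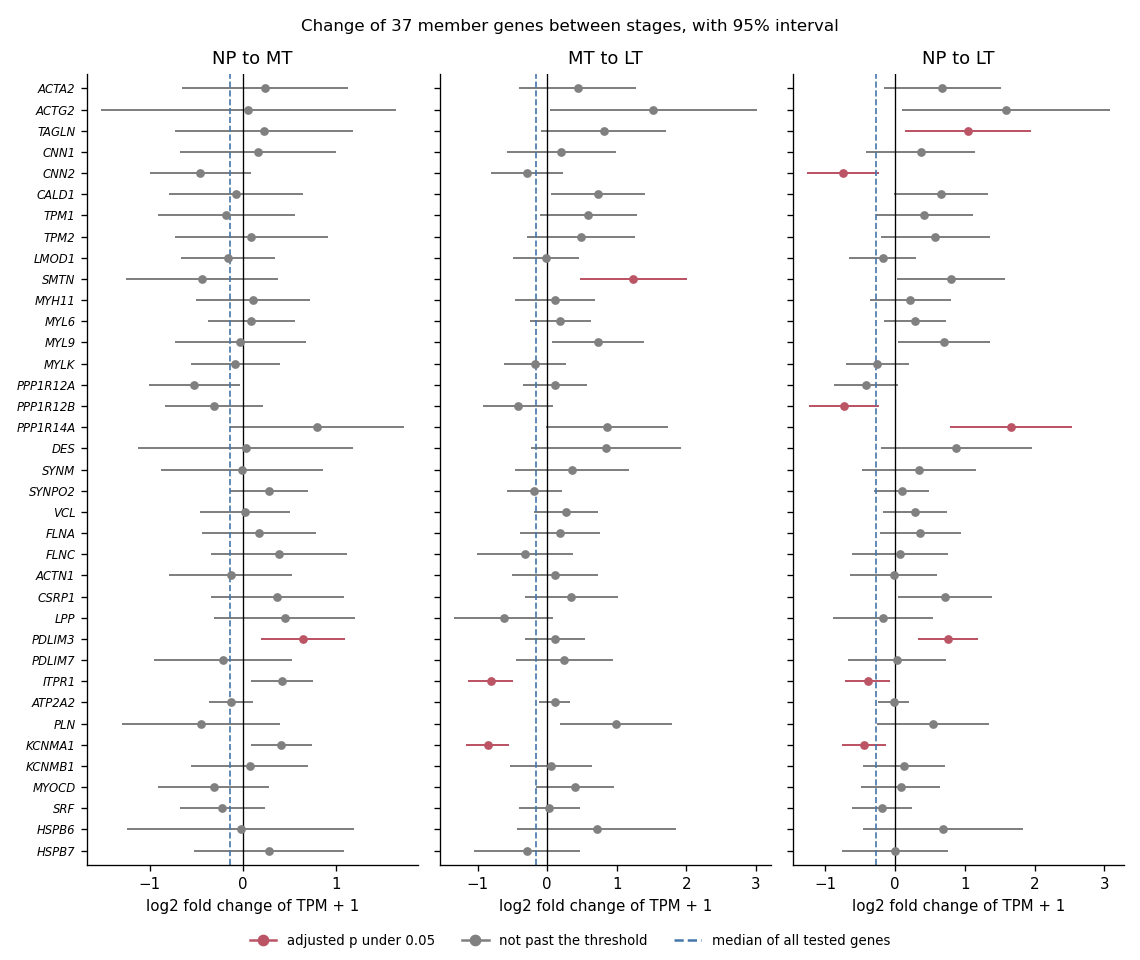
Each point is the log2 fold change of TPM + 1 of 1 of 37 member genes (y axis) in 1 of the 3 comparisons, with its 95% interval from limma; red marks an adjusted P under 0.05 and the dashed line the median of all tested genes. From MT to LT, SMTN lies to the right of 0 and ITPR1 and KCNMA1 to the left, and most of the other intervals include 0.

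The 2 smooth muscle actins were the most abundant members. ACTG2, the gamma actin typical of visceral smooth muscle, was at 9985, 2408 and 1249 TPM in NP replicates 1 to 3, at 3008, 4020 and 2828 TPM in the MT animals, and at 5964, 5017, 15686 and 16313 TPM in the LT animals. The LT animals all exceeded the MT animals, but NP replicate 1 lay within the LT range. The log2 fold change from MT to LT was 1.53 (SE 0.66, adjusted P = 0.105), a 2.88-fold difference that did not pass the threshold, and without NP replicate 1 the adjusted P was 0.0261. ACTG2 held rank 2 among all genes in LT replicates 3 and 4, and rank 112 in NP replicate 3.

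ACTA2, the alpha actin of vascular and other smooth muscle and of myofibroblasts, was at 8564, 3252 and 2827 TPM in NP, at 4145, 6286 and 4963 TPM in MT, and at 5417, 5355, 8863 and 8559 TPM in LT. The 3 stages overlapped. From NP to LT its log2 fold change was 0.68 (SE 0.37, adjusted P = 0.148). The coding sequences of the actin genes are nearly identical, so reads could be divided between ACTA2, ACTG2 and the other actins in a way that the counts do not show, and the levels of single actin genes are uncertain to that extent.

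TAGLN (transgelin, SM22), an actin-binding protein that is among the most widely used markers of smooth muscle, was at 5966, 2271 and 1790 TPM in NP, at 2718, 4492 and 3199 TPM in MT, and at 4270, 4884, 7600 and 7927 TPM in LT. NP replicate 1 again lay within the LT range. The rise from NP to LT was 1.04 on the log2 scale (SE 0.40, adjusted P = 0.0493), at the edge of the threshold. It held in 4 of 19 alternative settings, with adjusted P-values between 0.00185 and 0.193, and it was 1.56 without NP replicate 1.

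SMTN (smoothelin) binds actin filaments and is found in fully contractile smooth muscle. Its levels were 129, 75.6 and 60.1 TPM in NP, 59.4, 71.6 and 54.8 TPM in MT, and 83.1, 129, 200 and 216 TPM in LT. All LT animals were above all MT animals, and the spread within LT was large. SMTN rose from MT to LT by 1.24 on the log2 scale (SE 0.34, adjusted P = 0.0225), which was 2.36-fold. The call was kept after rescaling and in edgeR, and lost with the replicate number as a block and when any 1 of the MT animals or LT replicate 3 or 4 was left out, with adjusted P-values up to 0.104 over the alternative settings. From NP to LT the value was 0.80 (adjusted P = 0.0688), and it was called after rescaling and on counts.

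The calponins restrain the ATPase of actin-bound myosin. CNN1, the form of smooth muscle, was at 1421, 575 and 516 TPM in NP, at 669, 1100 and 807 TPM in MT, and at 784, 772, 1137 and 1268 TPM in LT, and no comparison passed the threshold. CNN2, which is also made in cells other than muscle, was at 199, 119 and 94.6 TPM in NP, at 83.4, 103 and 101 TPM in MT, and at 95.9, 78.2, 66.4 and 72.7 TPM in LT. Its level fell from NP to LT by 0.75 on the log2 scale (adjusted P = 0.0184), but after rescaling the value was -0.45 (adjusted P = 0.171).

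The tropomyosins lie along the actin filament. TPM1 was at 2416, 1052 and 991 TPM in NP, at 1077, 1402 and 1156 TPM in MT, and at 1495, 1465, 2060 and 2418 TPM in LT. TPM2 was at 3249, 1271 and 1178 TPM in NP, at 1463, 2287 and 1767 TPM in MT, and at 2081, 2047, 2909 and 3296 TPM in LT. All LT animals exceeded all MT animals for TPM1 and not for TPM2, and neither gene passed the threshold in any comparison. The other filament genes were CALD1 (caldesmon), with stage means of 585, 514 and 868 TPM in NP, MT and LT and a value of 0.73 between MT and LT on the log2 scale (adjusted P = 0.0874), and LMOD1 (leiomodin, a nucleator of actin filaments), with stage means of 249.8, 225 and 224 TPM. Without NP replicate 1, TPM1 and CALD1 were called higher from MT to LT (adjusted P = 0.0312 and 0.0142), and TPM2 was not. The study lists TPM1, CALD1 and PLN among genes that differed between MT and LT, in tests without correction for multiple comparisons.

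**Figure D3:**
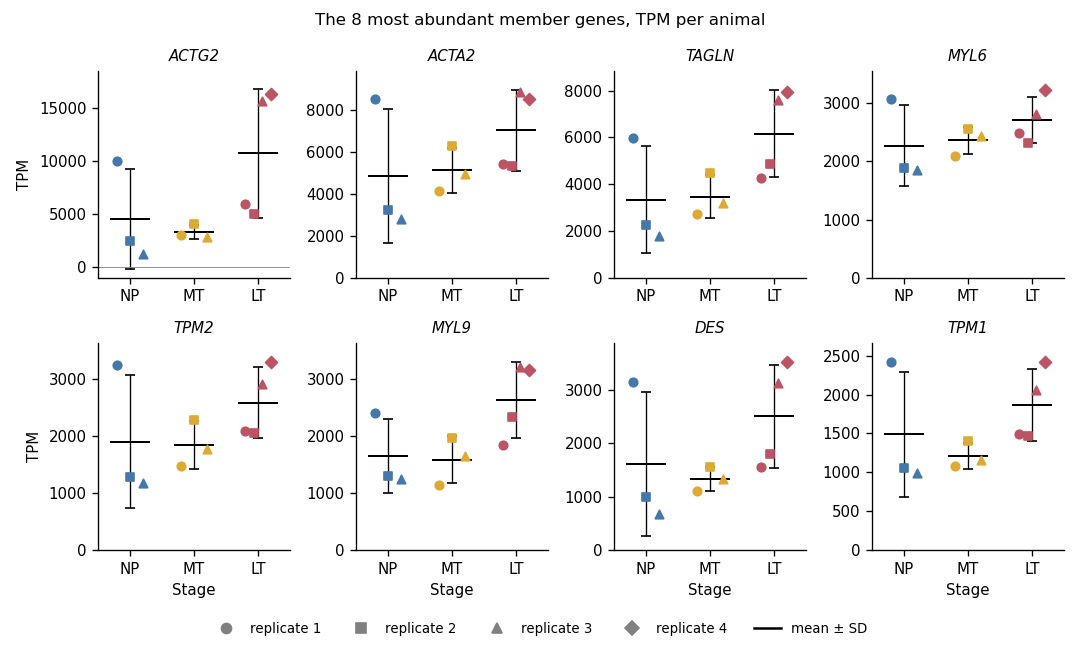
TPM of the 8 most abundant member genes in each animal (y axis) by stage (x axis), with the symbol giving the replicate number and the bars the mean ± SD of the stage. In all 8 panels NP replicate 1 is above the other NP animals, and LT replicates 3 and 4 are above LT replicates 1 and 2.

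Of the 4 myosin genes, none passed the threshold in any comparison on TPM as deposited. MYH11, the heavy chain of smooth muscle myosin, was at 1251, 719 and 833 TPM in NP, at 742, 1199 and 1051 TPM in MT, and at 816, 884, 1268 and 1363 TPM in LT. Its stages overlapped throughout, and the log2 fold change from NP to LT was 0.22 with a 95% interval from -0.34 to 0.78. MYLK, the kinase that phosphorylates the regulatory light chain, was at 1097, 873 and 794 TPM in NP, at 679.7, 1024 and 927 TPM in MT, and at 615, 673, 871 and 951 TPM in LT. For MYLK the log2 fold change from NP to LT was -0.25, with an interval from -0.69 to 0.18.

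MYL9, the regulatory light chain itself, was at 2410, 1296 and 1251 TPM in NP, at 1136, 1964 and 1658 TPM in MT, and at 1839, 2332, 3211 and 3160 TPM in LT. Its log2 fold change was 0.73 from MT to LT (adjusted P = 0.0817) and 0.71 from NP to LT (adjusted P = 0.0637). The latter was called after rescaling, at 1.00 (adjusted P = 0.0323), and in edgeR on counts, at 0.94 (adjusted P = 0.0476). MYL6, the essential light chain, which non-muscle myosin also uses, was at 3070, 1887 and 1850 TPM in NP, at 2099, 2554 and 2431 TPM in MT, and at 2486, 2309, 2818 and 3224 TPM in LT. Both light chains were lowest in NP replicate 3 or MT replicate 1 and highest in LT replicate 3 or 4.

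PPP1R14A (CPI-17), a small inhibitor of myosin phosphatase, was at 234, 93.1 and 62.8 TPM in NP, at 173, 244 and 174 TPM in MT, and at 302, 262, 468 and 421 TPM in LT. All LT animals were above all MT and all NP animals. It rose from NP to LT by 1.66 on the log2 scale (SE 0.39, adjusted P = 0.00546), which was 3.16-fold, and by 2.19 without NP replicate 1 (adjusted P = 0.000235). The single steps were 0.80 from NP to MT (adjusted P = 0.195) and 0.86 from MT to LT (adjusted P = 0.117), and neither passed.

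PPP1R12B, a targeting subunit of the phosphatase in muscle, was at 18.6, 14.8 and 18.5 TPM in NP, at 10.4, 16.8 and 14.6 TPM in MT, and at 7.96, 7.58, 12.9 and 12.4 TPM in LT. All LT animals were below all NP animals. The level fell from NP to LT by 0.73 on the log2 scale (SE 0.22, adjusted P = 0.0174), but after rescaling the value was -0.46 (adjusted P = 0.136), and without NP replicate 3 it was not called either. PPP1R12A, the widespread targeting subunit (MYPT1), had stage means of 141, 98.0 and 109 TPM. Its MT animals lay below its NP animals without overlap, with a log2 fold change of -0.52 that did not pass the threshold (adjusted P = 0.114).

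**Figure D4:**
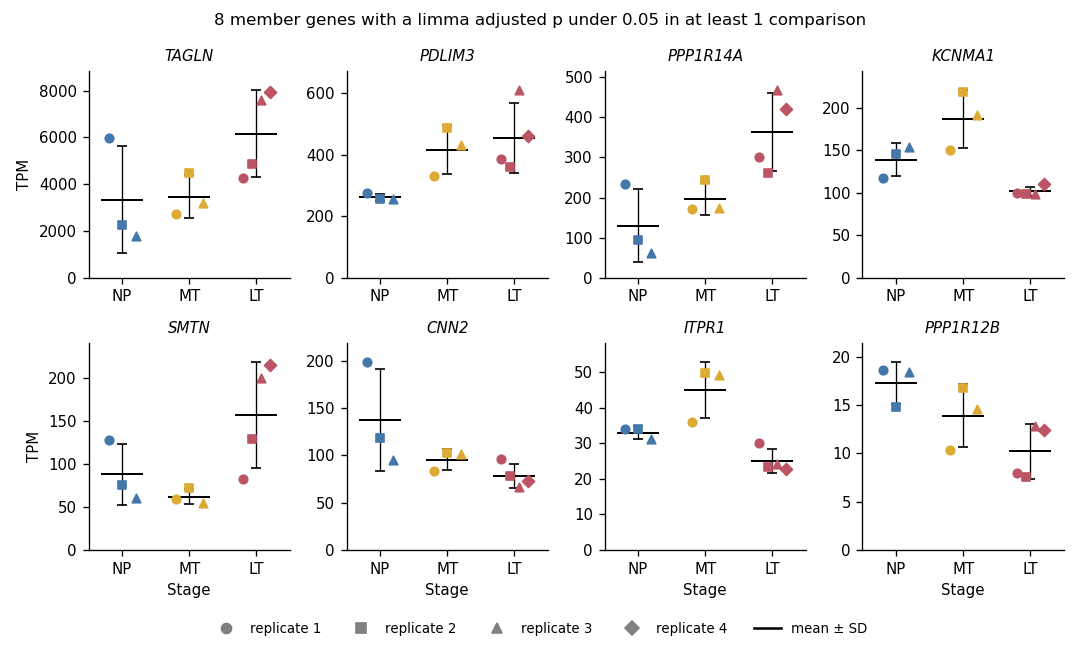
TPM of 8 of the 9 member genes with a limma adjusted P under 0.05 in at least 1 comparison, by stage (x axis), with the symbol giving the replicate number and bars for mean ± SD. The stage means of PPP1R14A and SMTN are highest in LT, that of PDLIM3 is lowest in NP, and those of KCNMA1 and ITPR1 are highest in MT and lowest in LT.

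Among the 11 genes of intermediate filaments, dense plaques and cytoskeletal linkers, only PDLIM3 passed the threshold. PDLIM3, a PDZ and LIM domain protein that binds alpha-actinin, was at 276, 255 and 256 TPM in NP, at 329.5, 486 and 433 TPM in MT, and at 386, 359, 611 and 461 TPM in LT. All pregnant animals were above all NP animals, which were close to each other, NP replicate 1 included. It rose from NP to MT by 0.65 on the log2 scale (SE 0.20, adjusted P = 0.0481), a call that held in 10 of 19 alternative settings. From NP to LT it rose by 0.76 (SE 0.19, adjusted P = 0.0069), 1.69-fold, and the adjusted P stayed at or below 0.0273 in all 19.

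DES (desmin), the intermediate filament protein of muscle, was at 3153, 992 and 673 TPM in NP, at 1100, 1549 and 1324 TPM in MT, and at 1558, 1795, 3127 and 3520 TPM in LT. The lowest LT animal was just above the highest MT animal, and NP replicate 1 was within the LT range. Between MT and LT the DES estimate was 0.84 on the log2 scale, with a wide interval, from -0.23 to 1.91 (adjusted P = 0.203). CSRP1, a LIM protein of smooth muscle, was at 1587, 873 and 801 TPM in NP, at 1067, 1584 and 1424 TPM in MT, and at 1310, 1279, 2328 and 2178 TPM in LT. Its value from NP to LT was 0.72 (adjusted P = 0.0622), and it was called after rescaling.

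The remaining genes of this group did not pass in any comparison on TPM as deposited. FLNA (filamin A), which crosslinks actin, had stage means of 735, 788 and 898 TPM, and ACTN1 (alpha-actinin) 323, 269.6 and 292 TPM. VCL (vinculin), a linker of actin to the membrane, had means of 143, 138 and 167 TPM, with all LT above all MT animals. Stage means were 224, 178 and 219 TPM for PDLIM7, 161, 196 and 172 TPM for SYNPO2, and 157, 140 and 185 TPM for SYNM (synemin). For FLNC they were 91.8, 111 and 88.9 TPM, and for LPP 50.5, 65.3 and 42.5 TPM. NP replicate 1 was the highest NP animal for all of these genes.

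KCNMA1 and ITPR1 had their highest stage mean in MT and their lowest in LT. KCNMA1 encodes the pore-forming subunit of the large-conductance (BK) channel, which damps excitation. It was at 118, 146 and 154 TPM in NP, at 151, 218 and 192 TPM in MT, and at 100.1, 98.2, 98.9 and 109.9 TPM in LT. Every LT animal lay below every other animal, and NP replicate 1, the highest for most members, was here the lowest of the NP animals. From MT to LT KCNMA1 fell by 0.86 on the log2 scale (SE 0.13, adjusted P = 0.00321), to 0.552 of its MT level, and after rescaling by 0.69 (adjusted P = 0.00496).

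The fall of KCNMA1 from NP to LT was smaller, at 0.44 (adjusted P = 0.0196), and was -0.15 after rescaling (adjusted P = 0.339). From NP to MT the value was 0.42 (adjusted P = 0.0688), and it was called after rescaling (adjusted P = 0.0201). KCNMB1, the regulatory beta subunit of the same channel in smooth muscle, had stage means of 138, 139.6 and 143 TPM and passed in no comparison. Its log2 fold change from MT to LT was 0.05, with an interval from -0.52 to 0.63.

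ITPR1, the receptor through which inositol trisphosphate releases calcium from the sarcoplasmic reticulum, was at 33.9, 34.1 and 31.1 TPM in NP, at 35.9, 49.8 and 49.4 TPM in MT, and at 30.1, 23.3, 24.2 and 22.7 TPM in LT. The 3 stages did not overlap, with MT highest and LT lowest. ITPR1 fell from MT to LT by 0.81 on the log2 scale (SE 0.14, adjusted P = 0.00376), to 0.569 of the MT level, and by 0.65 after rescaling (adjusted P = 0.01). From NP to LT it fell by 0.39 (adjusted P = 0.0335), and the value was -0.11 after rescaling (adjusted P = 0.546). From NP to MT the value was 0.42 (adjusted P = 0.0699), and it was called after rescaling (adjusted P = 0.035).

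ATP2A2 (SERCA2), the pump that returns calcium to the sarcoplasmic reticulum, was among the steadiest members, with stage means of 179 ± 21.7, 163 ± 5.11 and 176 ± 11.0 TPM (SD, n = 3, 3 and 4). The NP to LT estimate was -0.02 on the log2 scale, with an interval from -0.23 to 0.19. PLN (phospholamban), which inhibits that pump, had stage means of 50.7, 38.1 and 77.1 TPM. Its value from MT to LT was 0.99 (SE 0.35, adjusted P = 0.0583), and MT replicate 2, at 57.4 TPM, lay above LT replicates 1 and 2.

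SRF and MYOCD, the regulators of contractile gene transcription, passed in no comparison. SRF had stage means of 91.2, 76.9 and 78.0 TPM. MYOCD was at 13.3, 13.2 and 13.8 TPM in NP, at 8.60, 12.3 and 11.3 TPM in MT, and at 9.45, 11.4, 17.4 and 21.8 TPM in LT, and its 3 NP animals were alike although they differed several-fold in ACTG2. The small heat shock proteins HSPB6, which is phosphorylated during relaxation, and HSPB7 had stage means of 94.9, 74.2 and 127 TPM and of 149, 162 and 135 TPM, and neither passed.

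Ratios within a library do not move with the total of the TPM. The ratio of ACTG2 to ACTA2 was 1.17, 0.741 and 0.442 in NP, 0.726, 0.640 and 0.570 in MT, and 1.101, 0.937, 1.77 and 1.91 in LT. All LT animals were above all MT animals, and NP replicate 1 was within the LT range. The difference of the mean log2 ratio from MT to LT was 1.09 (two-sided exact permutation test, P = 0.0571, adjusted P = 0.257 over the 9 such tests of ratios, n = 3 and 4). With 3 animals against 3, as from NP to MT, the smallest P of this test is 0.1.

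The smooth muscle actins ACTA2 and ACTG2 made up 61.6% ± 11.4 of the TPM of the actins ACTA2, ACTG2, ACTG1, ACTA1 and ACTC1 in NP, 67.9% ± 5.21 in MT and 77.8% ± 7.81 in LT (SD, n = 3, 3 and 4). ACTB, the main cytoplasmic actin, was not analysed here, so these shares are higher than shares of all actin TPM would be. Of the class II myosin heavy chains MYH11, MYH9, MYH10 and MYH14, MYH11 made up 69.2%, 62.1% and 71.7% in NP, 60.6%, 70.0% and 67.1% in MT, and 70.4%, 75.4%, 86.2% and 86.3% in LT. Every LT animal had a higher MYH11 share than every MT animal, with a mean difference of 13.7 percentage points (exact permutation test, P = 0.0571, adjusted P = 0.257). None of the 9 tests of ratios passed after adjustment. A single ratio at the smallest possible P would not pass this adjustment either, so the result does not show that the ratios were alike.

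**Figure D5:**
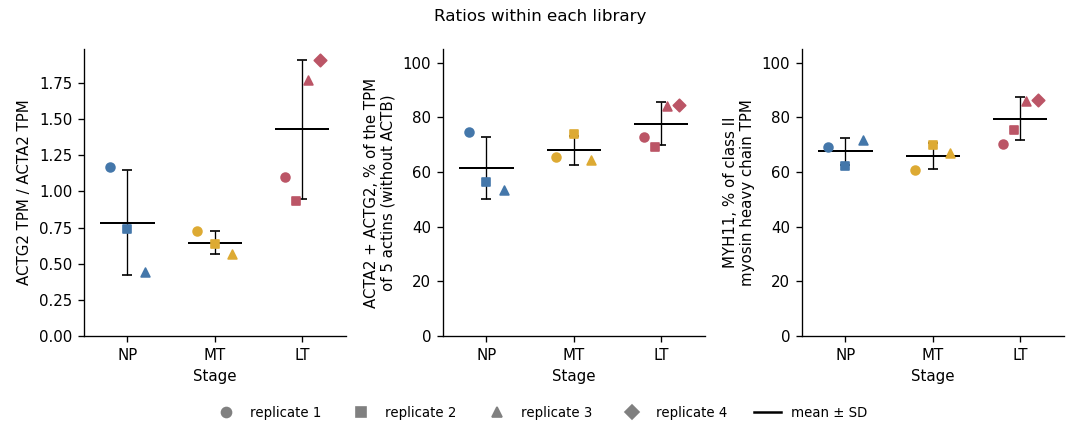
The ratio of ACTG2 to ACTA2 TPM (left), the share of ACTA2 and ACTG2 in the TPM of 5 actins without ACTB (middle, %) and the share of MYH11 in class II myosin heavy chain TPM (right, %) in each animal by stage, with symbols for the replicate number, bars for mean ± SD, and y axes that start at 0. LT replicates 3 and 4 are the highest animals in all 3 panels, and MT animals lie below LT animals in the left and right panels.

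The MYH11 share is set against cytoplasmic myosins, of which the most abundant were lower in LT. MYH10, a heavy chain of non-muscle myosin, was at 151, 81.4 and 51.1 TPM in NP, at 82.8, 89.8 and 94.5 TPM in MT, and at 53.7, 33.5, 19.2 and 20.6 TPM in LT, and fell from MT to LT by 1.58 on the log2 scale (adjusted P = 0.0161). MYH9, the other abundant non-muscle heavy chain, fell by 1.04 (adjusted P = 0.00913), from a mean of 344.5 to 172 TPM. Both were lowest in LT replicates 3 and 4. Of 14 cytoplasmic counterparts of the members that were tested, 2 were called higher and 3 lower from MT to LT, where 6.73% and 22.7% of all tested genes were, and 4 higher and 3 lower from NP to LT, where 11.2% and 41.9% were. After rescaling, 5 of them were called higher and 1 lower from NP to LT, against 24.7% and 25.0% of all tested genes. TAGLN2, a relative of transgelin outside muscle, rose from NP to LT by 1.07 (adjusted P = 0.000657).

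Receptors and signalling genes that act on the contractile apparatus, in lists drawn up with earlier results of these data known, were tested in the same fit. Of the 9 tested receptors that raise contraction, 2 were called higher and 1 lower from NP to MT, against 6.27% and 12.2% of all tested genes. From MT to LT 0 were called higher and 3 lower, against 6.73% and 22.7%, and from NP to LT 2 higher and 2 lower, against 11.2% and 41.9%. The oxytocin receptor OXTR was low throughout, at 1.74, 3.43 and 1.798 TPM in NP, 5.73, 7.01 and 7.16 TPM in MT, and 3.45, 3.26, 4.30 and 3.79 TPM in LT. It rose from NP to MT by 1.23 on the log2 scale (adjusted P = 0.00466) and fell from MT to LT by 0.70 (adjusted P = 0.0255). The endothelin receptor EDNRB followed the same course, with 1.18 (adjusted P = 0.0352) and -1.46 (adjusted P = 0.00886). The receptor of prostaglandin F, PTGFR, rose from NP to LT by 1.40 (adjusted P = 0.03), but NP replicate 1, at 1.79 TPM against 13.1 and 12.9 in the other NP animals, set much of this value, which was 0.63 without it (adjusted P = 0.00138). PTGER1, a receptor of prostaglandin E, fell from NP to LT by 0.97 (adjusted P = 0.00382). After rescaling, 2 of the 9 receptors were called lower from MT to LT, against 15.3% of all tested genes, and OXTR was not called in that comparison by edgeR on counts.

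On the relaxing side, 1 gene was called higher and 5 lower of 9 tested from NP to LT, where 11.2% and 41.9% of all tested genes were. From NP to MT 1 was called higher and 2 lower, against 6.27% and 12.2%. From MT to LT 0 were called higher and 3 lower, against 6.73% and 22.7%. The nitric oxide receptor, soluble guanylate cyclase, which makes cyclic GMP, was lower in both main subunits. GUCY1A3 fell from NP to LT by 2.18 on the log2 scale (adjusted P = 0.000122), from a mean of 56.6 to 11.7 TPM, and GUCY1B3 fell by 1.37 (adjusted P = 0.000118), from 26.5 to 9.73 TPM. PDE5A, which breaks down cyclic GMP, fell by 1.23 (adjusted P = 0.000614). The relaxin receptor RXFP1 rose from NP to MT by 0.89 (adjusted P = 0.0444) and fell from MT to LT by 1.20 (adjusted P = 0.00822), and PTGER2, a prostaglandin E receptor that raises cyclic AMP, rose from NP to LT by 1.38 (adjusted P = 0.00888). The rises of RXFP1 and EDNRB from NP to MT were lost without NP replicate 1 (adjusted P = 0.06 and 0.0652), and after rescaling 1 gene of the 9 was called higher and 4 lower from NP to LT, against 24.7% and 25.0% of all tested genes.

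Of 13 tested G proteins and their regulators, 0 were called higher and 6 lower from MT to LT, against 6.73% and 22.7% of all tested genes, and 0 higher and 8 lower from NP to LT, against 11.2% and 41.9%. RGS4, which shortens signals of G protein-coupled receptors, fell from NP to LT by 2.00 (adjusted P = 0.000635). After rescaling, 0 of the 13 were called higher and 3 lower from MT to LT, against 14.0% and 15.3%, and 1 higher and 4 lower from NP to LT, against 24.7% and 25.0%.

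Among 10 other channels and pumps, 0 were called higher and 4 lower from MT to LT, against 6.73% and 22.7% of all tested genes. From NP to LT 1 was called higher and 5 lower, against 11.2% and 41.9%. From NP to MT 1 was called higher and 2 lower, against 6.27% and 12.2%. After rescaling, 1 was called lower from MT to LT, against 15.3%, and 1 was called higher and 3 lower from NP to LT, against 24.7% and 25.0%. ORAI1, the pore of the calcium channel that opens when the stores are empty, rose from NP to MT by 0.76 on the log2 scale (adjusted P = 0.00587) and from NP to LT by 0.90 (adjusted P = 0.00048), with stage means of 18.8, 32.3 and 35.9 TPM. ANO1, a calcium-activated chloride channel, fell from MT to LT by 1.32 (adjusted P = 0.00638). The plasma membrane calcium pump ATP2B1 and the small-conductance potassium channel KCNN3 fell from NP to LT by 0.99 and 1.26 (adjusted P = 0.000117 and 0.000332).

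Of 17 genes of caveolae, the dystrophin complex and integrin attachments, 0 were called from NP to MT, where 6.27% of all tested genes were called higher and 12.2% lower. From MT to LT 0 were called higher and 2 lower, against 6.73% and 22.7%, and 2 higher and 3 lower from NP to LT, where 11.2% and 41.9% of all tested genes were. After rescaling, 1 was called higher and 0 lower from NP to MT, against 10.4% and 7.74%, 1 higher and 1 lower from MT to LT, against 14.0% and 15.3%, and 3 higher and 1 lower from NP to LT, against 24.7% and 25.0%. UTRN (utrophin), which links actin to the dystrophin complex, fell from MT to LT by 0.88 (adjusted P = 0.00315). PRKCDBP (cavin-3), a coat protein of caveolae, and PARVA (parvin alpha), which binds actin at integrin attachments, rose from NP to LT by 0.64 and 0.47 (adjusted P = 0.0016 and 0.00542). Of 14 other transcriptional regulators, 2 were called higher and 7 lower from NP to LT, against 11.2% and 41.9% of all tested genes. After rescaling, 3 of the 14 were called higher and 5 lower, against 24.7% and 25.0%. From MT to LT 0 of the 14 were called higher and 5 lower, against 6.73% and 22.7%. After rescaling, 2 were called higher and 4 lower from MT to LT, against 14.0% and 15.3%. MKL1 and MKL2, actin-regulated coactivators of SRF, fell from MT to LT by 0.72 and 1.00 (adjusted P = 0.00195 and 0.00183), and KLF4, a repressor of contractile genes in cultured smooth muscle, rose from NP to LT by 1.97 (adjusted P = 0.00169).

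Markers of other cells that use some of these genes were examined in the same fit. Of 16 skeletal muscle genes with a row, MYOD1 was at 0 in all 10 animals, ACTA1 did not exceed 2.67 TPM and MYOG did not exceed 0.115 TPM, while TNNT1 was at 72.2 to 97.3 TPM in every animal and MYH7 reached 111 TPM in MT replicate 2. Vascular smooth muscle shares most of the members. All 10 endothelial markers were called lower from NP to LT and 8 of the 10 from MT to LT, against 41.9% and 22.7% of all tested genes, and after rescaling 9 and 6, against 25.0% and 15.3%. Their summed TPM was between 288 and 365 in NP, between 231 and 284 in MT and between 128 and 206 in LT. Of 7 tested pericyte and mural markers, 0 were called higher and 2 lower from NP to LT (PDGFRB and COX4I2), against the same 41.9% called lower. The summed epithelial markers lay between 1854 and 4197 TPM in NP, 1617 and 2696 TPM in MT and 2993 and 4457 TPM in LT. Of the 9 epithelial markers, 3 were called higher and 1 lower from NP to LT, against 11.2% and 41.9% of all tested genes, and after rescaling 4 and 1, against 24.7% and 25.0%, and their median log2 fold change was 0.42. Of the 9 fibroblast markers, 1 was called higher and 1 lower from MT to LT, against 6.73% and 22.7% of all tested genes. After rescaling the counts were the same, against 14.0% and 15.3%. Their median log2 fold change from MT to LT was 0.62, and that of all tested genes -0.16, with 7 of the 9 estimates positive. From NP to MT their median was -0.34. From NP to LT 0 were called higher and 2 lower, against 11.2% and 41.9%, with a median of 0.24. After rescaling, 1 was called higher and 2 lower from NP to LT, against 24.7% and 25.0%. Of 10 tested leukocyte markers, 2 were called higher and 3 lower from NP to LT, against 11.2% and 41.9% of all tested genes. After rescaling, 2 of these 10 were called higher and 2 lower, against 24.7% and 25.0%. The part of these cells in the changes of the contractile genes was not tested.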

How the data were processed

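RNA of 10 cervices was sequenced as strand-specific 75-base single reads. The authors aligned the reads with TopHat2 to the guinea pig genome (cavPor3 in their methods) and deposited, per Ensembl gene, the read counts from HTSeq-count (version 0.5.4p1). The authors then made the TPM values from the counts, and both were used as deposited. Depth was 18730665 to 27881572 counted reads per animal, and each animal is 1 replicate. Genes were matched by gene name.

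Genes whose stage mean reached 3 TPM in any stage were tested with limma (3.58.1, R 4.3.3) with a trend, on log2(TPM + 1) with a pseudocount of 1, stage as the only term and Benjamini-Hochberg adjustment over 12645 genes. This replaces the square-root t-type tests of the study. Ratios were compared by two-sided exact permutation tests. The 19 alternatives were a pseudocount of 0.1, square-root TPM, no filter, median-ratio scaling, edgeR (4.0.16) with either normalization and DESeq2 (1.42.0) on counts, the compared stages alone, the replicate block, and leaving out each of the 10 animals. The scripts were tested on simulated data.

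Members called in at least 1 comparison, or among the 12 with the highest mean TPM, are given per animal, apart from those left out below; of other lists, up to 5 called genes with the largest changes are named. The members and lists were chosen with earlier results of these data known. CACNA1C was not analysed here. The values of 3 members, which enter the counts and sums, and of some genes of the other lists are not reported here by name.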

Additional observations from a re-analysis of the deposited data

Results flagged for a closer look

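KCNMA1, the pore-forming subunit of the BK channel, was at 109.9 TPM in LT replicate 4, while the other 3 LT animals were at 98.2, 98.9 and 100.1 TPM. The gap of this animal to the next was 0.835 of the range of the stage, which is unusually large for 4 animals. Chance alone marks about 1 in 20 groups of animals in this way, and all 40 members were examined in LT. LT replicate 4 still lay below every MT and NP animal, and the fall from MT to LT was called without it as well.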

How the results depend on the processing

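For NP to MT the number of members called was 1, and it was 0 on square-root TPM and with no filter, 3 after median-ratio scaling, in edgeR on counts, in edgeR with DESeq2 size factors and in DESeq2 on counts, 2 with only the compared stages, and 0 to 4 when 1 animal was left out. For MT to LT it was 4, with 8 in DESeq2 on counts, 9 with only the compared stages, and 3 to 13 without 1 animal, the highest without NP replicate 1. For NP to LT it was 8, and 4 to 24 without 1 animal, with 4 without NP replicate 2 or 3 and 24 without NP replicate 1. The share of all tested genes that was called moved with the settings too. For NP to MT it was 18.5%, and 8.7% to 33.0% without 1 animal. For MT to LT the share was 29.4%, with 36.1% in DESeq2 and 38.8% with only the compared stages, and 15.4% to 42.1% without 1 animal. For NP to LT the share was 53.1%, and 41.9% to 61.1% without 1 animal. In each comparison the highest share was that without NP replicate 1. The difference in the ACTG2 to ACTA2 log2 ratio from NP to MT was -0.53 to 0.17 without 1 animal and turned positive without NP replicate 1. The difference in the MYH11 share from NP to MT was -4.52 to 0.914 percentage points and turned positive without NP replicate 3 (0.274) or MT replicate 1 (0.914). The cause was not tested.

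With the replicate block, 0 members were called from NP to MT, 3 from MT to LT and 7 from NP to LT, against 12.5%, 13.4% and 43.1% of all tested genes. Animals with the same number did not deviate together (r from -0.29 to 0.25), so the number is only a name. Of 513 refits of the 9 called members in the 3 comparisons, 427 stayed on the same side of the threshold, 65 lost the call, 21 gained it and 0 changed sign with a call. Of the other members, ACTN1 changed sign with a call in 1 setting, from -0.02 from NP to LT to 0.40 without NP replicate 1 (adjusted P = 0.033). The medians over the members moved by less than the spread between animals, although without 1 animal they ran from -0.17 to 0.33 from NP to MT, so that the sign changed, from 0.087 to 0.25 from MT to LT and from 0.084 to 0.47 from NP to LT (0.47 without NP replicate 1). After median-ratio scaling the medians were 0.19, 0.32 and 0.50, and in edgeR on counts 0.04, 0.35 and 0.48, for NP to MT, MT to LT and NP to LT. On square-root TPM they are in another unit and were not compared. The lowest counts of a member in any library were those of PLN (72 reads) and HSPB6 (327 reads). With 3 or 4 animals in a stage, a p-value that misses the threshold does not show that levels were alike.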

Other observations

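Ratios between members with linked functions were examined after their values had been seen, and they are given as descriptions without a test. The ratio of PPP1R14A, the inhibitor of myosin phosphatase, to PPP1R12B, a targeting subunit of that enzyme, was 12.6, 6.31 and 3.40 in NP replicates 1 to 3, 16.7, 14.6 and 11.96 in the MT animals, and 37.9, 34.6, 36.4 and 33.9 in the LT animals. The 4 LT animals lay close together although they differed in the level of both genes, and all of them exceeded the MT animals.

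The ratio of KCNMA1 to KCNMB1, the pore-forming and the regulatory subunit of the BK channel, was 0.563, 1.42 and 1.52 in NP, 1.48, 1.27 and 1.32 in MT, and 0.716, 0.807, 0.682 and 0.671 in LT. The LT animals were all below the MT animals, and NP replicate 1 was the lowest of the 10. The ratio of CNN1 to CNN2 was 7.15, 4.84 and 5.45 in NP, 8.03, 10.7 and 7.998 in MT, and 8.18, 9.88, 17.1 and 17.5 in LT, with all pregnant animals above all NP animals. The ratio of MYH11 to MYH10 reached 66.0 and 66.2 in LT replicates 3 and 4, against 15.2 and 26.4 in LT replicates 1 and 2, and it lay between 8.26 and 16.3 in the other 6 animals.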
